A study of Mus musculus with 10 samples.

Results

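The 39 interferon-stimulated genes described here were read from the gene tables of 10 mouse cutaneous squamous cell carcinomas, in which bulk mRNA of whole tumors had been sequenced. They were chosen by name from a list of genes known to be switched on by interferons, with earlier results of these data known. All 39 were found among the 35275 genes listed and passed the filter on low counts. The tumors carried labels of LDHA-/- (5 tumors, here Ldha-null tumors 1 to 5) or of Ldha wild type (5 tumors, wild-type tumors 1 to 5). The comparison asks how these genes differ in tumors labelled as lacking lactate dehydrogenase A, the enzyme that converts pyruvate to lactate. Per the study's methods, tumors arose from hair follicle stem cells of mice on a mixed C57BL6/FVB background, Ldha was a floxed allele deleted by K15-CrePR with mifepristone or by Lgr5-CreER with tamoxifen, and tumors were driven by an oncogenic allele with loss of p53 or by DMBA and TPA. Which Cre line, inducer, driver, sex and age belong to each sequenced tumor is not given in the sources used here. Both Cre transgenes are directed to hair follicle stem cells, so the stroma and leukocytes of a null tumor are not targeted, and deletion by CrePR can be mosaic.

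Each library held 12969508 to 17694201 counted fragments. Ldha itself did not separate the labels: its level in FPKM (fragments scaled by transcript length and library depth) lay between 246 and 1880 under the null label and between 340 and 2820 under the wild-type label, so every direction below is between labels. Tissue content differed between tumors. The counts of null tumor 1 came to 14.0% from 12 skeletal muscle genes. The summed keratinocyte markers were highest in null tumor 3 and wild-type tumor 5 (Krt14, the basal keratin, at 28400 and 28700 FPKM, against 138 to 4190 FPKM in the other tumors).

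Interferons are secreted proteins of immune defence. Type I interferons (interferon alpha and beta) act through the receptor pair Ifnar1 and Ifnar2 and the kinases Jak1 and Tyk2 to form a complex that includes Stat2 and Irf9 and binds the interferon-stimulated response element (ISRE). Interferon gamma, made mainly by T cells and natural killer cells, acts through Ifngr1 and Ifngr2 on genes that carry the gamma-activated site (GAS). The genes of both programs overlap. Ifit, Oas and Mx genes, which block viral RNA and virus assembly, are led by type I interferon, while guanylate-binding proteins (Gbp), immunity-related GTPases such as Igtp, and the factor Irf1 are led by interferon gamma.

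The 2 DNA elements were searched for in the RefSeq promoters of the members (build GRCm38.p6, 250 bases before to 50 after the transcription start). The ISRE core was spelled GAAANNGAAA and the GAS core TTCNNNGAA, on either strand, and the 2 cores may overlap each other. Windows were found for 28 of the 39 genes, 33 windows in all. Of these, 17 windows (51.5%) of 16 genes held the ISRE core, against 3.44% of all 32851 promoter windows, and 7 windows (21.2%) of 7 genes held the GAS core, against 8.30% of all windows. The promoters of 5 genes are printed because they show both cores in both classes. Each is the 170 bases before the start, 5′ to 3′ on the strand of the gene, with the core letters in capitals.
Ifit3: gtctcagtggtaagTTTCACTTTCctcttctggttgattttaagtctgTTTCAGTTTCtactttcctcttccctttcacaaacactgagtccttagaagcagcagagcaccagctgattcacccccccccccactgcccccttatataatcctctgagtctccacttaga
Oas1a: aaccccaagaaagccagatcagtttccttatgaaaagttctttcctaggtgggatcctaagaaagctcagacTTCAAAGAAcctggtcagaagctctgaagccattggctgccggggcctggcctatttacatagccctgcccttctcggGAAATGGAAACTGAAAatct
Gbp3: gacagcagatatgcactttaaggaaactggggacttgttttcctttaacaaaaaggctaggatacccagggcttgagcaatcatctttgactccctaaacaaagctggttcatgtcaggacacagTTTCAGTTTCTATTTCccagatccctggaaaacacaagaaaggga
Igtp: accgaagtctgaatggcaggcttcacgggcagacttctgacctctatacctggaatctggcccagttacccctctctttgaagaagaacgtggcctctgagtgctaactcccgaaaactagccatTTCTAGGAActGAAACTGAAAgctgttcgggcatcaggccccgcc
Irf1: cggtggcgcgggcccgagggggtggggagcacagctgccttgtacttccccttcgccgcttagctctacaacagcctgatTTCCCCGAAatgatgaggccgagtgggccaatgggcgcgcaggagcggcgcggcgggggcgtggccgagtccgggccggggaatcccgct
These windows lie at chr19:34583359-34583528 (plus strand) for Ifit3, chr5:120907526-120907695 (minus strand) for Oas1a, chr3:142559874-142560043 (plus strand) for Gbp3, chr11:58199386-58199555 (plus strand) for Igtp and chr11:53769844-53770013 (plus strand) for Irf1. Ifit3 has 2 ISRE cores, beginning at bases -156 and -122 from the start. Oas1a has 2 overlapping ISRE cores at -20 and -14 and a GAS core at -98. Gbp3 has 2 overlapping ISRE cores at -45 and -39. Igtp has a GAS core at -45 followed by an ISRE core at -34, and Irf1 has a GAS core at -90 and no ISRE core. The letters did not divide the classes: of the type I-led genes with a window, 4 of 7 held an ISRE core and 2 of 7 a GAS core, and of the interferon gamma-led genes 3 of 4 held an ISRE core and 2 of 4 a GAS core. A match of letters is a description, not a site shown to be bound.

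Across the 39 genes, the level varied widely from tumor to tumor, and no gene passed the genotype test. The median span between the lowest and highest of the 10 tumors was 4.63 on the log2 CPM scale (depth-scaled counts, normalised with TMM), against 2.06 for all 15176 genes tested. In the edgeR quasi-likelihood fit, adjusted by Benjamini-Hochberg over all genes, 0 of 39 members passed an adjusted p of 0.05 (every member at 0.999), and 0 of all genes tested did (0%). At an unadjusted p under 0.05 there were 6 members, against 3.96% of all genes; all 6 had higher levels in the null tumors, where 3.56% of all genes were reached in that direction and 0.395% in the other. DESeq2 called 0 members and 0.00695% of all genes (8 members at an unadjusted p under 0.05, against 3.4%) and limma-voom with sample weights called 0 (22 at an unadjusted p under 0.05, against 2.12% of all genes). Of the 39 log2 differences (null over wild type) 35 were positive and 4 negative, where 52.8% of all genes were positive, and the median was 0.90 against 0.02 for all genes. The 95% intervals of 34 of the 39 spanned more than 4-fold. Because the members vary together between tumors, these counts do not stand for independent observations.

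**Figure D1:**
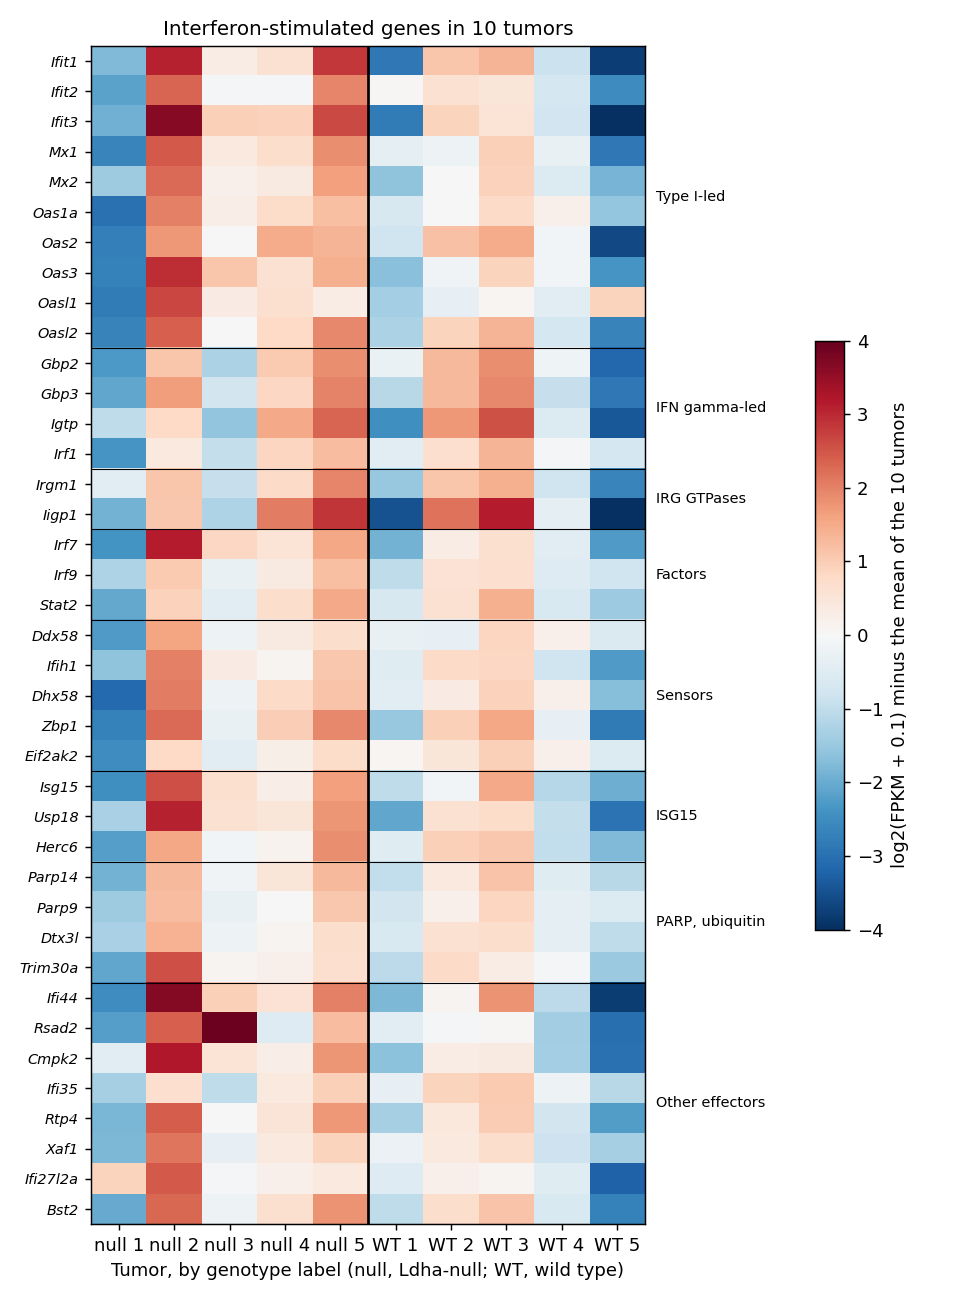
Level of the 39 members (rows, grouped by role) in the 10 tumors (columns), as log2(FPKM + 0.1) minus the mean of the 10 tumors; colours are capped at 4 in each direction. The type I-led rows are reddest in null tumor 2, the interferon gamma-led rows in wild-type tumor 3 and null tumor 5, and most rows are blue in null tumor 1 and wild-type tumor 5.

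One null tumor held the highest level of most members. In log2 CPM, 27 of the 39 were highest in null tumor 2, where 6.98% of all genes tested were highest, 8 were highest in wild-type tumor 3 (9.98% of all genes), 3 in null tumor 5 (5.17%) and 1 in null tumor 3 (11.6%). In FPKM these numbers were 26, 6, 6 and 1. The lowest FPKM lay in wild-type tumor 5 for 21 members and in null tumor 1 for 18. FPKM are not TMM-normalised, and the TMM scale over total counts was 0.589 in null tumor 1 and 0.881 to 1.20 in the other tumors. The FPKM of null tumor 1 therefore lie lower against the other tumors than its log2 CPM do. Without null tumor 2, 1 member was at an unadjusted p under 0.05 (against 4.77% of all genes). Without null tumor 1 there were 15 (1.25% of all genes), without wild-type tumor 3 there were 12 (2.73%), without wild-type tumor 1 or wild-type tumor 4 there were 3 (2.49% and 2.57%), and none passed adjustment in any of these fits.

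The type I-led class comprised Ifit1, Ifit2, Ifit3, Mx1, Mx2, Oas1a, Oas2, Oas3, Oasl1 and Oasl2. All 10 were highest in null tumor 2. All 10 had a positive log2 difference, from 0.58 (Oas2) to 2.50 (Ifit3), with a median of 1.34; none passed adjustment and 1 (Ifit3) was at an unadjusted p under 0.05. The median was 0.80 without null tumor 2 and between 1.20 and 1.82 without each of the other tumors.

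Ifit3 (ENSMUSG00000074896, chr19:34583531-34588731 in mm10, plus strand), whose protein joins the Ifit1 complex that captures viral RNA, stood at 1.38, 70.3, 10.7, 10.5 and 34.9 FPKM in null tumors 1 to 5 and, in the same order, at 0.700, 10.4, 8.09, 3.17 and 0.229 FPKM in the wild-type tumors. Null tumors 2 and 5 lay above all 5 wild-type tumors, null tumors 3 and 4 lay just above the highest of them, and null tumor 1 lay among the lower wild-type tumors. The means were 25.6 ± 12.5 FPKM (SEM, n = 5) and 4.51 ± 2.02 FPKM, and the log2 difference was 2.50 ± 1.04 (SE, unadjusted p = 0.0346 and adjusted p = 0.999 by edgeR). Permuting the labels over the 10 log2 CPM values (two-sided, exact) returned p = 0.0635. Reads of Ifit3 and of its near-identical copy Ifit3b (I830012O16Rik) were counted apart and their division is uncertain. Ifit3b, at 0.805, 12.3, 2.39, 1.18 and 4.51 FPKM in the null tumors and 0.0582, 1.12, 1.12, 0.367 and 0.167 FPKM in the wild-type tumors, was also highest in null tumors 2, 5 and 3.

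Ifit1, the sensor of uncapped viral RNA in that complex, stood at 1.51, 46.0, 6.65, 8.21 and 38.8 FPKM in the null tumors and 0.657, 11.6, 13.9, 2.92 and 0.301 FPKM in the wild-type tumors. Here null tumors 3 and 4 fell below wild-type tumors 2 and 3, and the log2 difference was 1.77 ± 1.04. Ifit2 ranged from 1.5 to 35.3 FPKM in the null and from 1.12 to 10.7 FPKM in the wild-type tumors. Mx1, a GTPase that traps viral ribonucleoproteins, ranged from 0.303 to 13.6 FPKM and from 0.244 to 4.79 FPKM (log2 difference 1.47 ± 0.79), and Mx2 from 0.406 to 6.37 FPKM and from 0.275 to 2.49 FPKM (1.44 ± 0.71). The groups overlapped in every one of these genes.

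The Oas genes encode synthetases of 2′-5′ oligoadenylate, which activates RNase L, and Oasl1 and Oasl2 are their relatives. Oasl2 had the highest level of the class, at 2.45, 83.8, 15.7, 27.7 and 61.6 FPKM in the null tumors and 6.63, 29.5, 41.0, 9.82 and 2.43 FPKM in the wild-type tumors. Null tumors 2 and 5 exceeded every wild-type tumor, while null tumors 3 and 4 lay inside the wild-type range. Oas3 had the largest difference of this family (1.83 ± 0.87) and Oas2 the smallest (0.58 ± 0.85). Oasl1 departed from the pattern in 1 tumor: wild-type tumor 5, the lowest tumor for 7 of the 10 type I-led genes, held the second highest Oasl1 level at 11.4 FPKM, after 39.4 FPKM in null tumor 2. Oas1a (0.96 ± 0.64) has a near copy, Oas1g, whose own levels were 0.285 to 18.4 FPKM in the null and 0.618 to 6.08 FPKM in the wild-type tumors, so the split between both is uncertain.

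The interferon gamma-led class comprised Gbp2, Gbp3, Igtp and Irf1, and the groups overlapped in each of these genes. The mean log2 CPM of the class was 5.28 in the null and 4.77 in the wild-type tumors. That is a difference of 0.51, against 1.34 for the type I-led class. The log2 differences were 0.08 ± 0.80 for Gbp2, 0.39 ± 0.85 for Gbp3, 0.05 ± 1.01 for Igtp and -0.07 ± 0.52 for Irf1, with a median of 0.06. The 95% interval for Igtp reached from -2.19 to 2.28, so it covers differences of more than 4-fold in either direction. The size and sign of the median depended on single tumors. It was -0.34 without null tumor 5, -0.04 without null tumor 4, 0.31 without null tumor 3 and 0.81 without wild-type tumor 3. With all tumors it was 0.94 by limma-voom.

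Igtp (ENSMUSG00000078853, chr11:58199556-58207591, plus strand), a GTPase that controls vacuoles of intracellular parasites, stood at 5.06, 17.9, 3.40, 29.7 and 52.1 FPKM in the null tumors and 1.8, 34.6, 60.4, 6.97 and 0.890 FPKM in the wild-type tumors. A pair of null tumors (4 and 5) and a pair of wild-type tumors (2 and 3) lay above the rest. Gbp2, a guanylate-binding protein that coats such vacuoles, stood at 5.73, 61.7, 11.7, 59.1 and 103 FPKM and at 23.7, 70.0, 103, 25.2 and 3.13 FPKM. Null tumor 2 joined the 4 high tumors for this gene. Irf1, the transcription factor that carries the interferon gamma signal to further genes, stood at 10.9, 74.7, 29.2, 102 and 134 FPKM and at 41.8, 89.4, 146, 53.0 and 34.7 FPKM. Again the same 4 tumors were the highest. Gbp3 ranged from 2.54 to 44.8 FPKM and from 1.44 to 42.8 FPKM, and null tumor 2, at 35.5 FPKM, lay above wild-type tumor 2 and null tumor 4. Igtp overlaps Irgm2 and Gbp3 overlaps Gbp5 on the same strand, so the reads of both genes are uncertain where they overlap.

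The immunity-related GTPases Irgm1 and Iigp1 resembled this class. Iigp1 stood at 2.28, 18.7, 3.68, 36.5 and 64.4 FPKM in the null tumors and 0.691, 39.4, 77.6, 6.75 and 0.330 FPKM in the wild-type tumors, so the same 4 tumors were again the highest, with null tumor 2 behind them. Its log2 difference was -0.03 ± 1.23, and that of Irgm1 was 0.66 ± 0.72. Both reached levels in null tumor 5 (64.4 and 38.3 FPKM) above those in null tumor 2.

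Set side by side within each tumor, the 2 classes had different orders. The geometric mean of the 10 type I-led genes was 0.71, 25.5, 5.43, 6.87 and 14.2 FPKM in the null tumors and 1.58, 5.63, 7.96, 3.11 and 0.650 FPKM in the wild-type tumors. The geometric mean of the 4 interferon gamma-led genes was 5.33, 41.3, 9.38, 43.4 and 75.3 FPKM and 9.76, 49.5, 78.9, 15.2 and 3.43 FPKM. Null tumor 2 thus ranked 1 of 10 in the first class and 5 of 10 in the second, and wild-type tumor 3 ranked 3 and 1. The interferon gamma-led level was 1.62 times the type I-led level in null tumor 2 and 1.73 times in null tumor 3, and between 4.89 and 9.91 times in the other tumors.

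**Figure D2:**
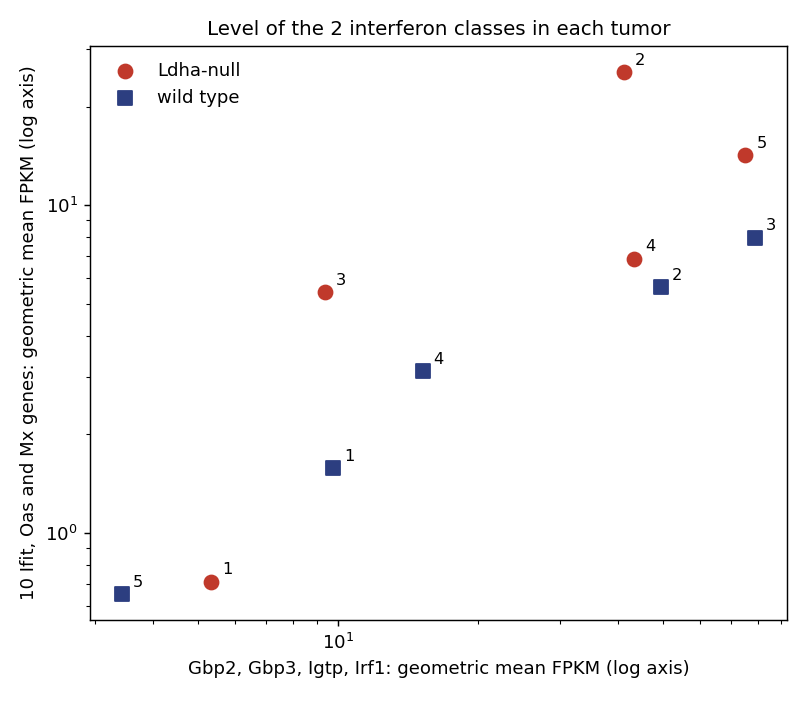
Geometric mean FPKM of the 4 interferon gamma-led genes (x, log axis) and of the 10 type I-led genes (y, log axis) in each tumor; circles are Ldha-null, squares wild type, and the digits are tumor numbers. Wild-type tumor 5 and null tumor 1 lie at the lower left, and null tumors 2 and 3 have a higher type I-led level than other tumors of a like interferon gamma-led level.

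In log2 CPM, the type I-led mean minus the interferon gamma-led mean was -2.49, -0.36, -0.44, -2.30 and -2.06 in null tumors 1 to 5 and -2.22, -2.77, -2.96, -1.93 and -1.94 in wild-type tumors 1 to 5. The group means were -1.53 ± 1.04 (SD, n = 5) and -2.36 ± 0.48, a difference of 0.83 that is near the pooled SD within groups of 0.81. Null tumors 2 and 3 stood apart from the other tumors, and null tumors 1, 4 and 5 lay within the wild-type range. The difference was 0.54 without null tumor 2 and 0.56 without null tumor 3. No test is given for this value, since the genes were chosen with earlier results known.

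The pair of tumors that led each class shows the contrast gene by gene (they were picked after their values were seen, and 1 tumor a side allows no test). All 10 type I-led genes were higher in null tumor 2 than in wild-type tumor 3, with FPKM ratios from 1.17 to 8.70 and a median of 3.08. All 4 interferon gamma-led genes were lower, with ratios from 0.296 to 0.830. The median ratio of all expressed genes between these tumors was 1.02. Against null tumor 5, the ratios of null tumor 2 were 1.19 to 5.25 for the type I-led and 0.343 to 0.791 for the interferon gamma-led genes.

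Among the transcription factors, Irf7 had the largest difference. Irf7 (ENSMUSG00000025498, chr7:141262706-141266481, minus strand), which amplifies interferon alpha transcription, stood at 4.78, 224, 45.0, 37.0 and 74.3 FPKM in the null tumors and 6.74, 31.0, 39.4, 18.5 and 5.14 FPKM in the wild-type tumors. In FPKM, null tumors 2, 3 and 5 exceeded all wild-type tumors, and null tumor 1 was the lowest of all. After TMM scaling of the counts, null tumor 1 lay above wild-type tumors 1 and 5. The means were 77.1 ± 38.4 and 20.2 ± 6.70 FPKM, and the log2 difference of 1.94 ± 0.80 (unadjusted p = 0.0336 and adjusted p = 0.999 by edgeR) was 1.05 without null tumor 2. Permuting the labels over the log2 CPM values of Irf7 (two-sided, exact) returned p = 0.119. Irf7 overlaps Phrf1 on the opposite strand and the counting was not stated to use strand, so its reads near that gene are uncertain. Irf9 and Stat2, the partners in the ISRE-binding complex, were highest in null tumor 5 in FPKM (29.2 and 21.3) and had log2 differences of 0.55 ± 0.41 and 0.34 ± 0.58. Irf9 overlaps Rnf31 on the same strand.

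Of the ISG15 pathway, Isg15 is a ubiquitin-like protein, Herc6 the mouse ligase that attaches it, and Usp18 the protease that removes it and damps the type I receptor. Isg15 stood at 1.98, 67.8, 17.4, 13.4 and 35.4 FPKM in the null tumors and 5.46, 10.4, 31.9, 5.01 and 2.82 FPKM in the wild-type tumors (log2 difference 1.30 ± 0.79). Usp18 stood at 1.04, 23.4, 4.17, 3.78 and 9.35 FPKM and at 0.559, 4.19, 4.53, 1.34 and 0.264 FPKM, with a log2 difference of 1.97 ± 0.86 (unadjusted p = 0.0430 and adjusted p = 0.999 by edgeR). Its exact permutation p for log2 CPM was 0.0635 (two-sided). In FPKM, null tumors 2 and 5 lay above the wild-type tumors in both genes. The other null tumors lay among them, except that Isg15 was lowest of all in null tumor 1. After TMM scaling of the counts, Isg15 was lowest in wild-type tumor 5, and Usp18 in null tumor 3 also lay above the wild-type tumors. Herc6 ranged from 0.294 to 6.45 FPKM and from 0.430 to 3.71 FPKM (0.69 ± 0.70).

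The sensors of foreign nucleic acid showed smaller differences. Ddx58 (RIG-I), Ifih1 (MDA5) and Dhx58 (LGP2), the cytosolic RNA helicases, had log2 differences of 0.43 ± 0.48, 0.89 ± 0.64 and 0.75 ± 0.68, and Zbp1, the sensor of left-handed nucleic acid, 0.90 ± 0.86. Each of these was highest in null tumor 2, Ddx58 at 42.9 FPKM and Dhx58 at 28.4 FPKM. Eif2ak2 (PKR), the RNA-activated kinase that halts translation, differed by -0.17 ± 0.40 and was highest in wild-type tumor 3 at 46.0 FPKM. None of these genes was at an unadjusted p under 0.05.

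Parp14 and Parp9, which transfer ADP-ribose, and Dtx3l, the ubiquitin ligase partner of Parp9, had log2 differences of 0.54 ± 0.53, 0.45 ± 0.41 and 0.44 ± 0.42. Parp9 and Dtx3l overlap on opposite strands, and their counts cannot be fully told apart. Trim30a, a ubiquitin ligase of the Trim family with a near copy in Trim30d, reached 51.2 FPKM in null tumor 2 and 1.92 to 14.6 FPKM in the other tumors (1.11 ± 0.67).

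A pair of neighbouring effectors on chromosome 12 parted in 1 tumor. Rsad2 (viperin, chr12:26442753-26456452, minus strand), which makes a chain-terminating nucleotide, and Cmpk2 (chr12:26469204-26479835, plus strand), the kinase that feeds it, usually share induction by interferon. Rsad2 stood at 0.822, 22.3, 64.9, 2.91 and 9.88 FPKM in the null tumors and 3.10, 4.09, 4.33, 1.54 and 0.429 FPKM in the wild-type tumors. Cmpk2 stood at 0.845, 11.7, 1.79, 1.45 and 4.24 FPKM and at 0.309, 1.49, 1.57, 0.406 and 0.0626 FPKM. The highest Rsad2 level was that of null tumor 3, with 2734 counts, and no other member was highest there. Cmpk2 in that tumor, at 1.79 FPKM, lay above the highest wild-type tumor (1.57 FPKM) and below null tumors 2 and 5. The log2 difference was 3.10 ± 1.03 for Rsad2 (unadjusted p = 0.0121 by edgeR) and 2.44 ± 0.86 for Cmpk2 (unadjusted p = 0.0168 by edgeR), both with an adjusted p of 0.999. The exact permutation p for log2 CPM (two-sided) was 0.127 for Rsad2 and 0.0317 for Cmpk2. Without null tumor 3 the Rsad2 difference was 1.73, and without null tumor 2 the Cmpk2 difference was 1.57.

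Ifi27l2a (ENSMUSG00000079017, chr12:103442167-103443680, minus strand), a small interferon-induced membrane protein, had the highest mean level in the null tumors of the list. It stood at 112, 334, 59.1, 70.3 and 79.3 FPKM in the null tumors and 42.3, 69.9, 65.1, 43.7 and 6.34 FPKM in the wild-type tumors. In TMM-normalised log2 CPM the groups did not overlap, the only such member (0.185% of all genes tested did not overlap), but in FPKM null tumor 3 lay below wild-type tumors 2 and 3. The log2 difference was 1.73 ± 0.63 (unadjusted p = 0.0194 and adjusted p = 0.999 by edgeR). For log2 CPM the exact permutation p was 0.00794 (two-sided), the smallest that 5 against 5 tumors can give, and for log2(FPKM + 0.1) it was 0.0317 by the same exact test. The difference was 1.21 without null tumor 2 and 1.43 without wild-type tumor 5. Unlike the other members, it was high in null tumor 1, the tumor with muscle RNA, where it was second only to null tumor 2.

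Of the remaining effectors, Bst2 (tetherin), which holds budding virions at the membrane, stood at 13.3, 265, 46.9, 84.5 and 189 FPKM in the null tumors and 26.7, 89.1, 120, 35.4 and 8.21 FPKM in the wild-type tumors (log2 difference 1.10 ± 0.73). Null tumors 2 and 5 were again above every wild-type tumor. Ifi44 (2.01 ± 1.22), Rtp4 (1.34 ± 0.71) and Xaf1 (0.89 ± 0.56) shared null tumor 2 as their highest tumor, at 17.5, 41.1 and 74.6 FPKM. Ifi35 differed by -0.02 ± 0.44 and was highest in wild-type tumor 3 at 45.3 FPKM.

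**Figure D3:**
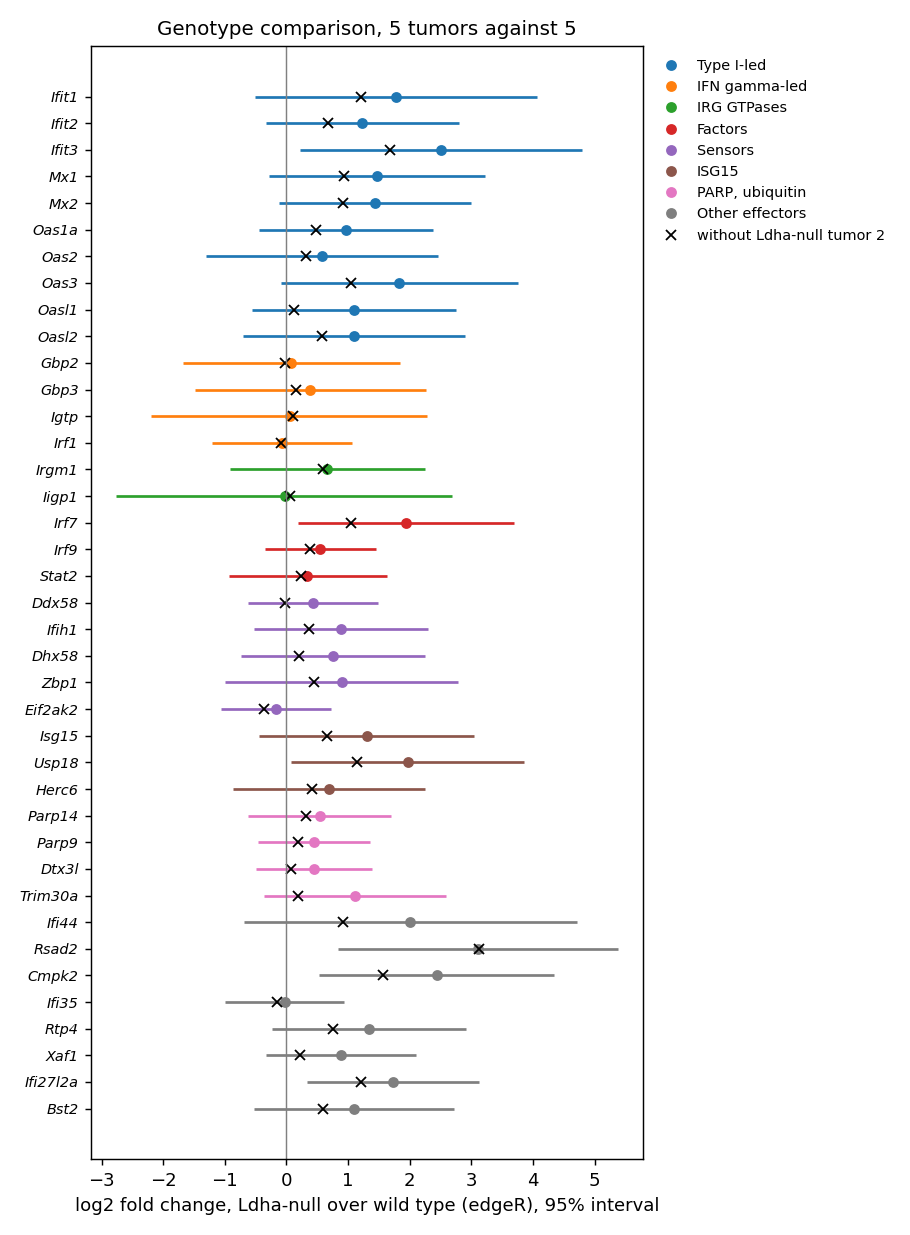
Log2 fold change of each member (Ldha-null over wild type, 5 tumors each) with its 95% interval from edgeR, coloured by role; crosses show the value without null tumor 2. Most points lie right of 0 with intervals that cross it, and the crosses of the type I-led genes lie to the left of their points.

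The ligands themselves were near the limit of detection, and none of the 21 interferon genes passed the filter. The 14 Ifna genes held 14 counts over all 10 tumors together, 7 of them none, and Ifnb1 (interferon beta) held 2 counts in null tumor 2, 2 in null tumor 5 and 0 elsewhere. A count of 0 allows up to 3 counts, or 0.170 to 0.231 CPM a library, for counting error only. The Ifna genes are near-identical copies, so reads may have been lost to multiple mapping. Ifng (interferon gamma) held 1, 2, 2, 10 and 31 counts in the null tumors and 0, 38, 31, 2 and 0 counts in the wild-type tumors. Its 4 highest tumors, wild type 2 and 3 and null 4 and 5, were those highest for Igtp, Iigp1 and Irf1. They were not those highest for Gbp2, Gbp3 and Irgm1. In these genes null tumor 2 (61.7, 35.5 and 21.6 FPKM) lay above null tumor 4 (59.1, 19.8 and 16.8 FPKM). Null tumor 2, with the highest type I-led level, held 0.0960 FPKM of Ifng against 2.14 FPKM in wild-type tumor 2.

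**Figure D4:**
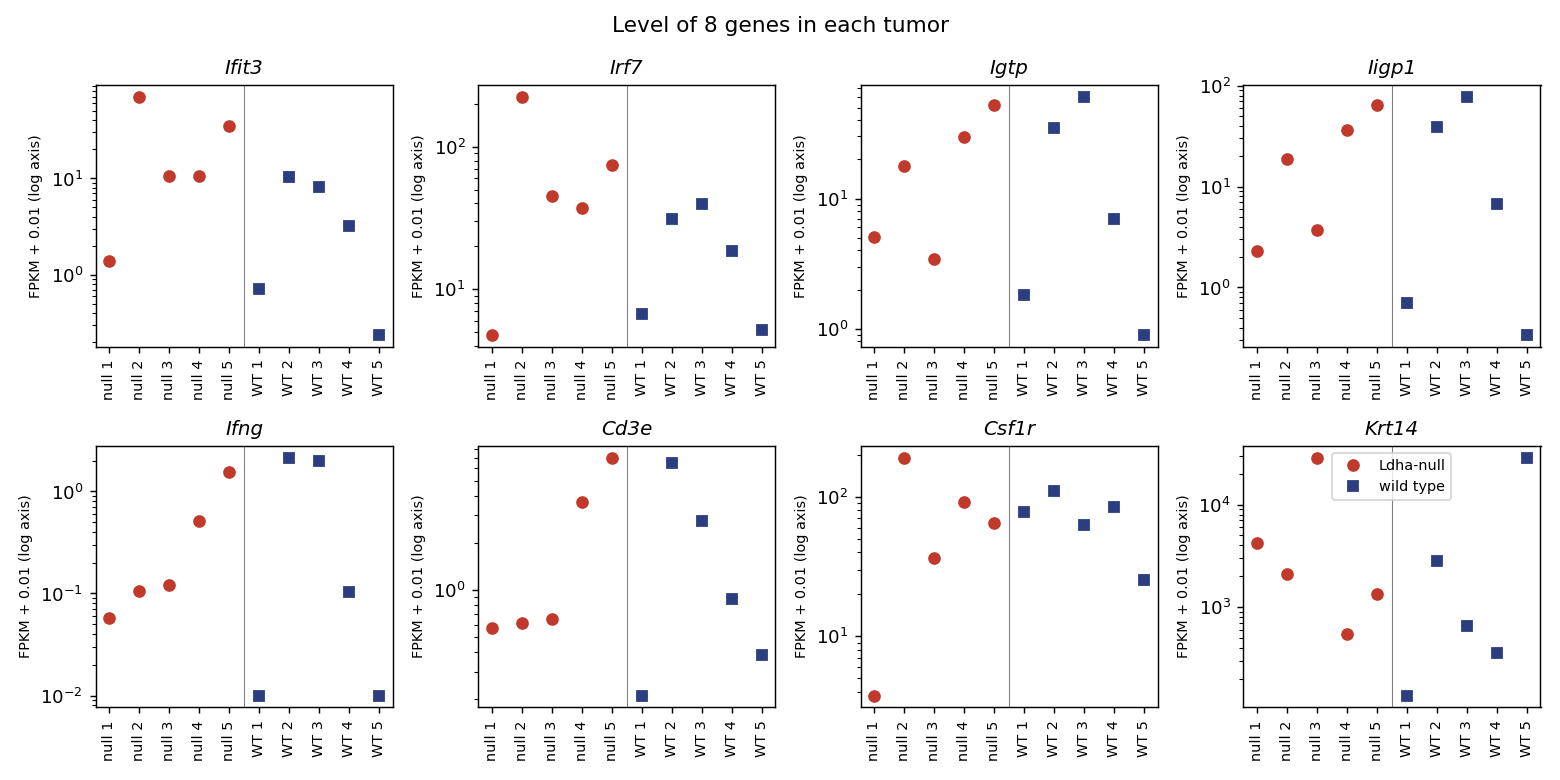
FPKM + 0.01 (log axis) of 8 genes in each tumor, Ldha-null as circles and wild type as squares. Igtp, Iigp1, Ifng and Cd3e are high in null tumors 4 and 5 and wild-type tumors 2 and 3; Ifit3, Irf7 and Csf1r are highest in null tumor 2; Krt14 is highest in null tumor 3 and wild-type tumor 5.

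Of the 6 receptor genes 0 passed, with log2 differences of -0.25 ± 0.33 for Ifnar1, -0.21 ± 0.39 for Ifnar2, -0.27 ± 0.37 for Ifngr1, 0.60 ± 0.29 for Ifngr2, 1.29 ± 0.78 for Ifnlr1 and -0.45 ± 0.51 for Il10rb. Of the kinases, 0 of 3 passed, with differences of 0.16 ± 0.20 for Jak1, 0.19 ± 0.25 for Jak2 and 0.08 ± 0.31 for Tyk2.

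Of 13 genes that switch interferon on, 0 passed and 0 were at an unadjusted p under 0.05. Tlr9, the endosomal DNA sensor, had the smallest p (log2 difference 1.36 ± 0.72), with 3.30 FPKM in null tumor 2 and 0.0496 to 0.906 FPKM in the other tumors, and it was followed by Mavs (0.43 ± 0.34), Tbk1 (-0.13 ± 0.21) and Ikbke (-0.17 ± 0.36). Of 8 negative regulators 7 were tested and 0 passed, Socs3 at -0.44 ± 0.36 and Pias1 at 0.29 ± 0.27 having the smallest p, and Trex1 was listed at 0 in every tumor. Trex1 lies within Atrip on the same strand, where reads shared by overlapping genes are not counted in union mode, so this 0 does not show that it was not expressed. Of 30 further interferon-induced genes 28 were tested and 0 passed, 22 with a positive and 6 with a negative difference and a median of 0.35. The smallest p belonged to Ifit3b (2.95 ± 0.88, unadjusted p = 0.0069 by edgeR), followed by Ifitm2 (-0.61 ± 0.34), Lgals3bp (0.99 ± 0.56) and Oas1g (1.24 ± 0.85). Ifit3b, the near-identical copy of Ifit3, was the 1 gene of this list whose groups did not overlap in log2 CPM, against 0.185% of all genes tested. Cxcl9, a T cell chemokine induced by interferon gamma and named here after its values were seen, stood at 2.31, 5.88, 1.17, 34.3 and 86.1 FPKM and at 0.240, 87.0, 116, 10 and 0.138 FPKM, again with null tumors 4 and 5 and wild-type tumors 2 and 3 on top.

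Markers of leukocytes also varied from tumor to tumor, and in bulk tumors fewer cells of a type and less RNA per cell cannot be told apart. The summed level of 8 macrophage markers was 257 to 7290 CPM in the null and 781 to 6350 CPM in the wild-type tumors and was highest in null tumor 2, as were 7 of the 8 markers. The summed level of 8 T cell markers was 7.81 to 95.9 CPM and 5.19 to 104 CPM, with wild-type tumor 2, null tumor 5, wild-type tumor 3 and null tumor 4 as the 4 highest and 26.6 CPM in null tumor 2. Cd3e, an invariant subunit of the T cell receptor complex, was at 0.605 FPKM in null tumor 2 and at 2.74 to 7.01 FPKM in those 4 tumors. Cd4 departed from this order: at 6.31 FPKM in null tumor 2, it lay below wild-type tumor 2 (6.95 FPKM) and above the other tumors. In the remaining markers of the list null tumor 2 lay below those 4 tumors. Cd8a was at 0 in wild-type tumor 5. The 6 natural killer markers summed to 1.46 to 25.3 CPM and 1.34 to 34.3 CPM. Their sum in null tumor 2 was 23.9 CPM, below wild-type tumor 2 and null tumor 5 and above the other tumors. The 3 plasmacytoid dendritic cell markers summed to 1.95 to 5.49 CPM and 0.882 to 3.62 CPM. The 5 neutrophil markers summed to 2500 CPM in null tumor 3, the tumor with the high Rsad2 level, and to between 89.6 and 1340 CPM elsewhere; 3 of the 5 were highest there, while Cxcr2 was highest in null tumor 5 (6.33 FPKM) and Csf3r in wild-type tumor 3 (35.9 FPKM). The 4 B cell markers summed to 1.85 to 8.51 CPM and 0.986 to 12 CPM, with Ms4a1 at 0 in some tumors. The part of any of these cells in the levels of the members was not tested.

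Tissue content stood apart in wild-type tumor 5 and in null tumors 1 and 3. In the type I-led and interferon gamma-led scores, wild-type tumor 5 ranked 10 and 10 of 10 and null tumor 1 ranked 9 and 8. Null tumor 3 ranked 5 and 7, and wild-type tumor 1, which is not among these tumors, ranked 8 and 9. Summed pan-leukocyte markers were 61.7 CPM in null tumor 1, 136 CPM in wild-type tumor 5 and 253 CPM in null tumor 3, against 356 to 758 CPM in the other tumors, fibroblast markers were 864 CPM in null tumor 1, and the part of tissue content was not tested beyond leaving these tumors out. Without all 3, which leaves 3 null and 4 wild-type tumors, 19 members were at an unadjusted p under 0.05, each with a higher level in the null tumors, against 1.59% of all genes tested, and 0 passed adjustment by edgeR. Null tumor 2, the highest tumor for 27 of the 39 members in log2 CPM, was among the null tumors kept. No fit left it out together with these 3 tumors. The 19 included Ifit1, Ifit2, Ifit3, Mx1, Mx2, Oas1a, Oas3, Oasl1, Irf7 and Usp18, and none of the interferon gamma-led genes. The medians were then 1.67 for the type I-led and 0.32 for the interferon gamma-led genes.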

How the data were processed

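Counts and FPKM per gene were deposited by the authors, 1 table a tumor. Per the labels and the study's methods, mRNA was enriched with oligo(dT), reads were processed with CASAVA 1.8, mapped to mm10 with TopHat2 and counted with HTSeq in union mode; no source used here gives strand use, annotation release or the other versions. Members were matched by the gene name in the tables. The members and lists were chosen with earlier results of these data known. Counts were tested with edgeR 4.0.16 (R 4.3.3; TMM, filterByExpr with a minimum count of 10 and minimum total of 15, quasi-likelihood F-test, no covariate), with Benjamini-Hochberg adjustment over all 15176 genes tested and a threshold of 0.05. Log2 CPM used a prior count of 2. FPKM, which the authors scaled by total and length, are printed as levels and are not TMM-normalised. Single genes also had a two-sided exact permutation test over the tumors; a score is the mean log2 CPM of a class. The fit was tested on simulated data. Alternatives were DESeq2 1.42.0, limma-voom 3.58.1, other normalisations and filters, a replicate block and leaving out tumors. All 39 members were named, with receptors and signalling genes, and up to 4 genes of each other list by smallest p. The labels do not say which tumors came from separate mice, so p-values measure the spread between tumors. Tumor numbers are shared by both labels only as numbers; they were not used as pairs. Replicates differed by far more than counting noise. Promoter sequences came from RefSeq. A few genes of the lists are not reported here by name.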

Additional observations from a re-analysis of the deposited data

Results flagged for a closer look

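In 84 groups of 5 tumors (each member, and the 3 class scores, in each genotype) the highest or lowest tumor was set against the rest on the log2 CPM scale by Dixon's criterion (gap over range above 0.71), which chance passes in about 4.2 of 84 groups. One did: Ifi27l2a stood at 6.34 FPKM in wild-type tumor 5, below 42.3 FPKM, the next lowest wild-type tumor, and in log2 CPM its gap to the next tumor was 0.77 of the range. Its genotype difference without that tumor is 1.43 on the log2 scale.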

How the results depend on the processing

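Members past the adjusted threshold numbered 0 under every alternative run, and genes past it 0 under all but DESeq2, which called 1 gene that is no member; without each tumor in turn the range was 0 to 0 for both. The type I-led median stayed positive throughout (0.80 to 1.82 without each tumor), and the interferon gamma-led median ranged from -0.34 to 0.81 without each tumor. The difference between the class scores ranged from 0.54 to 1.07 without each tumor and was 0.58 with Irgm1 and Iigp1 added to the interferon gamma-led class. Between 0 and 4 members changed sign under a setting (among Ifi35, Iigp1, Eif2ak2, Irf1, Gbp2, Igtp and Ddx58). Members at an unadjusted p under 0.05 numbered 6 in the edgeR fit (against 3.96% of all genes tested) and 8 by DESeq2 (3.4%). They numbered 5 with upper-quartile factors (3.67%) and 22 by limma-voom (2.12%). With the tumor number as a replicate block, 0 genes passed, 120 genes (0.791%) and 6 members were at an unadjusted p under 0.05, and the medians were 1.14 and 0.43; the numbers' correlations between labels ran from -0.51 to 0.55 and 1 of 5 tumors matched its own number best, so the block is no evidence of pairing. Depth limits the interferon ligands, which could not be tested.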
